A study of Mus musculus with 14 samples.

Results

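The 7 genes described here are Uap1 and its close relative Uap1l1, the 4 genes of the steps before them in the hexosamine pathway (Gfpt1, Gfpt2, Gnpnat1 and Pgm3), and Ogt, whose product spends the end product on proteins. They are 7 of the 22180 genes that the array names by a probe set of their own, and each of the 7 was read by 1 such probe set. Uap1 was chosen by its K289R minus WT difference, already known to be among the larger ones of these arrays, and the other 6 were added for their place in the pathway. The differences between genotypes of all 7 are therefore descriptions, with a standard error (SE) and without a test. All 7 lay above the limit for dim genes, a mean log2 intensity of 6.25, that left 18010 genes for testing.

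Whole jejunum, a middle stretch of the small intestine, was taken from mice with LRH-1 K289R (7 mice) and from mice with wild-type LRH-1 (WT, 7 mice), and the RNA of each mouse was hybridised to 1 Affymetrix whole-transcript array. LRH-1, the product of Nr5a2, is a nuclear receptor of the gut, liver and pancreas, and in K289R an arginine stands in place of a lysine known to accept the protein modifier SUMO, so the comparison asks what changes in jejunal RNA when that site is altered. All mice were 19 to 21 weeks old and had eaten freely until they were killed at 7 in the morning. The series title calls the data hepatic but also names jejunums, each sample is labelled as jejunum, and all were taken as jejunum. The labels do not say how the K289R allele was made, nor the strain, litter or cage of each mouse or any batch of arrays.

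The hexosamine pathway turns the sugar phosphate fructose 6-phosphate, with glutamine, acetyl-CoA and UTP, into UDP-N-acetylglucosamine (UDP-GlcNAc). Cells use UDP-GlcNAc as the sugar donor for N-glycans, mucin O-glycans, GPI anchors and hyaluronan, and for the single O-GlcNAc that Ogt puts on proteins of nucleus and cytosol. The gut epithelium makes much mucus and a thick glycocalyx, and both draw on this donor. When unfolded proteins gather in the endoplasmic reticulum (ER), the transcription factor XBP1 is known to act on genes of the pathway.

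The arrays had median intensities of 168 to 174, arrays of different genotypes correlated with r between 0.984 and 0.992 and arrays of the same genotype with r between 0.984 and 0.993 over all probe sets. The mean log2 level of 11 enterocyte genes, with Vil1 and Sis among them, ran from 13.01 to 13.29 in K289R and from 12.97 to 13.30 in WT. Fabp6, a gene of the ileum, lay above log2 8 on 4 arrays (K289R replicates 2 and 7, WT replicates 1 and 6, at 9.18 to 12.52) and between 6.09 and 6.63 on the other 10. Nr5a2 itself averaged 10.18 ± 0.19 in K289R and 10.32 ± 0.18 in WT (SD, n = 7 each), which is no check of the labels, as an exchanged amino acid can leave the RNA level as it is. Precision is limited by the number of arrays.

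Uap1 encodes the enzyme of the last step, which joins UTP and GlcNAc 1-phosphate to UDP-GlcNAc. Its log2 intensity in K289R had a lowest value of 9.83, a median of 10.14 and a highest value of 10.40, against 10.41, 10.50 and 10.67 in WT. No K289R array reached the lowest WT array, but the gap between the highest K289R array, replicate 3, and the lowest WT array, also replicate 3, was only 0.0094. The means were 10.12 ± 0.18 in K289R and 10.54 ± 0.10 in WT (SD, n = 7 each), a difference of −0.42 (SE 0.074). On the linear scale this is a fold of 0.748, K289R over WT. In whole tissue, fewer cells that hold a transcript and less of it per cell cannot be told apart.

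Of the 18010 genes tested, 25, Uap1 itself among them, had a difference at or below that of Uap1, which restates how Uap1 was chosen. Arrays of the 2 genotypes did not overlap for 1 of the 7 genes, Uap1, and for 0.167% of all genes tested. With a Benjamini-Hochberg adjusted p under 0.05 from limma, 0 of the 7 genes passed, and 0.0444% of all genes tested did. At an unadjusted p under 0.05 there were 2 of the 7, Uap1 and Gfpt1, against 8.48% of all genes tested. As these genes were chosen with that contrast known, these counts are no test of them, and nothing is read from the counts.

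**Figure D1:**
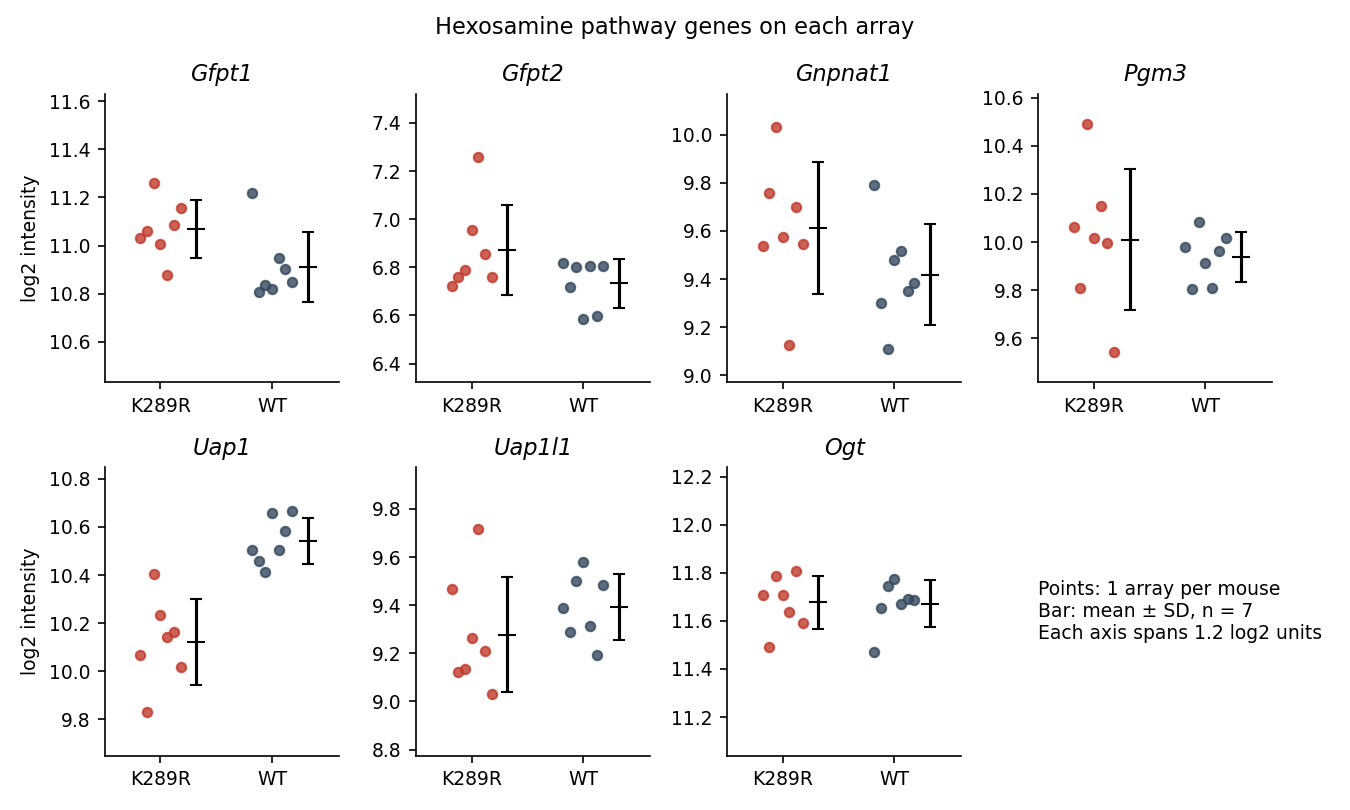
Log2 intensity of the 7 genes on each of 14 arrays, K289R in red at the left of each panel and WT in dark blue at the right, with the mean and SD beside the points (n = 7 each). The Uap1 points of K289R (9.83 to 10.40) all lie below those of WT (10.41 to 10.67), while in the other 6 panels the points of the genotypes overlap.

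Uap1l1, a relative of Uap1 whose role in this pathway is less well defined, lay between 9.03 and 9.72 in K289R, with a median of 9.21, and between 9.19 and 9.58 in WT, with a median of 9.39. The groups overlapped, with 3 K289R arrays below the lowest WT array and 1, replicate 5, above the highest. The difference of −0.11 (SE 0.094) was about as large as its standard error, and without K289R replicate 5 it was −0.19 (SE 0.076). Without K289R replicate 7 it was −0.074 (SE 0.094).

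Gfpt1 encodes the enzyme that opens the pathway and sets its pace, by moving nitrogen from glutamine to fructose 6-phosphate. It had a lowest value of 10.88, a median of 11.06 and a highest value of 11.26 in K289R, against 10.81, 10.85 and 11.22 in WT. Thus 6 of 7 K289R arrays lay above the WT mean, the opposite side to Uap1, while a single WT array, replicate 1, stood among the highest K289R arrays. The difference was 0.16 (SE 0.069). It was 0.21 (SE 0.058) without WT replicate 1 and 0.12 (SE 0.067) without K289R replicate 3. With the mean of smooth muscle genes in the model it was 0.28 (SE 0.079), and with that of B and plasma cell genes 0.14 (SE 0.071).

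Gfpt2, the second gene for the opening step, was close to the limit for dim genes, where background presses differences towards 0. It ranged from 6.72 to 7.26 in K289R, with a median of 6.79, and from 6.58 to 6.82 in WT, with a median of 6.80. The medians were nearly equal, and the difference of 0.14 (SE 0.077) leaned on K289R replicate 5, the array at 7.26. Without that array it was 0.074 (SE 0.057), and with the smooth muscle mean in the model 0.057 (SE 0.097).

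Gnpnat1, whose enzyme adds the acetyl group, ran from 9.13 to 10.03 in K289R, with a median of 9.58, and from 9.11 to 9.79 in WT, with a median of 9.38. The groups overlapped almost fully, yet 6 of 7 K289R arrays lay above the WT mean. The difference was 0.19 (SE 0.116), 0.12 (SE 0.107) without K289R replicate 3 and 0.43 (SE 0.121) with the smooth muscle mean in the model. A second probe set that covers Gnpnat1 together with its neighbour Styx carries both symbols and was not used.

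Pgm3, the mutase that shifts the phosphate from carbon 6 to carbon 1, had the widest scatter of the 7 genes in K289R, from 9.54 to 10.49 with a median of 10.02. In WT it stayed between 9.81 and 10.09, with a median of 9.96, so the WT range of 0.28 lay inside the K289R range of 0.95. The difference was 0.07 (SE 0.105), and −0.0086 (SE 0.086) without K289R replicate 3, which carried the highest value. Without K289R replicate 7, the lowest, it was 0.15 (SE 0.088). It was 0.23 (SE 0.125) with the smooth muscle mean in the model, 0.13 (SE 0.081) with the goblet mean and 0.03 (SE 0.084) with array weights.

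Ogt, the X-linked gene of O-GlcNAc transferase, was level between the genotypes. It ran from 11.49 to 11.81 in K289R, with a median of 11.71, and from 11.47 to 11.78 in WT, with a median of 11.69, a difference of 0.01 (SE 0.059). On all 14 arrays Xist lay between 6.22 and 6.66, near the limit for dim genes, and the Y-linked Kdm5d and Uty were at 9.13 or higher, so these transcripts gave no array a female pattern.

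**Figure D2:**
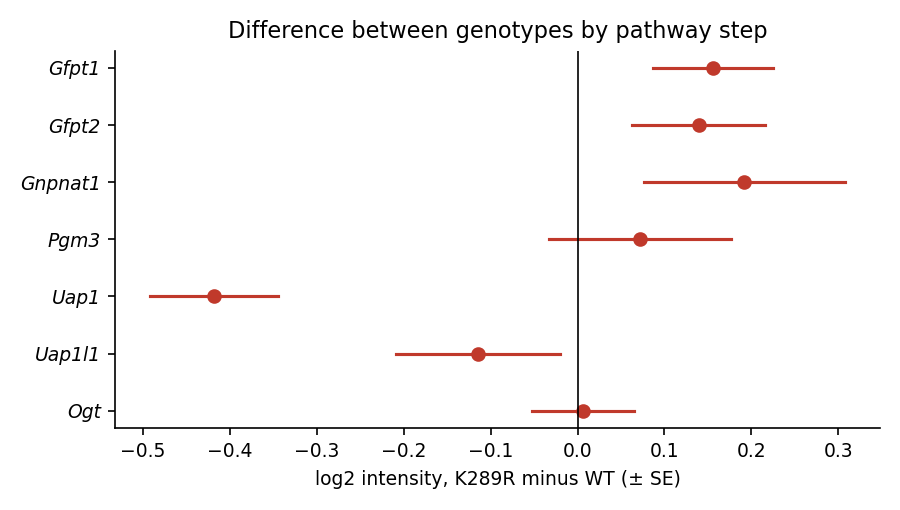
Difference in log2 intensity, K289R minus WT, for the 7 genes in pathway order from the opening step at the top, with SE bars (7 arrays in each group). Uap1 stands at −0.42, Uap1l1 at −0.11, and the 4 genes of the earlier steps between 0.07 and 0.19.

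Read along the pathway, the 4 genes before Uap1 had differences above 0, and Uap1 and its relative Uap1l1 had differences below 0. That of Uap1l1 was about the size of its standard error. That of Pgm3 was smaller than its standard error (0.07, SE 0.105) and changed sign without K289R replicate 3. Gfpt2 (0.14, SE 0.077) was near the limit for dim genes with nearly equal medians, and Gnpnat1 differed by 0.19 (SE 0.116). Of the 7 genes 2 were lower in K289R, beside 52.0% of all genes tested. The median difference of the 7 was 0.07, beside −0.0039 over all genes tested. In 6 of the 7 genes, all but Gfpt1, the SD between mice was larger in K289R than in WT, which was the case for 63.1% of all genes tested. K289R replicate 5 was the highest K289R array for Gfpt2 and Uap1l1 and the lowest for Gfpt1 and Gnpnat1. WT replicate 1 was the highest WT array for Gfpt1 and Gnpnat1 and the lowest for Ogt.

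The stretches around the start sites of 4 of these genes are shown because each holds the letters GACGTG, the core of the elements that XBP1 and ATF6 are known to bind. RefSeq's table on GRCm38.p6, which reaches from 250 bases before to 50 after a start site, had 6 promoters for 5 of the 7 genes, all but Uap1l1 and Gnpnat1. Capitals mark GACGTG or, where it lies on the other strand, CACGTC. Each sequence runs 5′ to 3′ on the strand of its gene and starts 250 bases before the start site.
Uap1, chr1:170174957-170175214, minus strand: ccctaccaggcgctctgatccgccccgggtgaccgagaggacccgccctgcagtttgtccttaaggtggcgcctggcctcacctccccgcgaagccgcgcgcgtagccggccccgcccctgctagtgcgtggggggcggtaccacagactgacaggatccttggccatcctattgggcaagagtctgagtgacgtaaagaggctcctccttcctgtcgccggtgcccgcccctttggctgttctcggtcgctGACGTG
Gfpt1, chr6:87042596-87042845, plus strand: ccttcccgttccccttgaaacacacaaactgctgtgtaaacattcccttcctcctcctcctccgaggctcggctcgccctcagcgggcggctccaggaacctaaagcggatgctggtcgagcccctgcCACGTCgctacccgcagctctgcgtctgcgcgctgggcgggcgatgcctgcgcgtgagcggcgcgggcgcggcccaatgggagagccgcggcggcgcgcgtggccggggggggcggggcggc
Gfpt2, chr11:49793905-49794154, plus strand: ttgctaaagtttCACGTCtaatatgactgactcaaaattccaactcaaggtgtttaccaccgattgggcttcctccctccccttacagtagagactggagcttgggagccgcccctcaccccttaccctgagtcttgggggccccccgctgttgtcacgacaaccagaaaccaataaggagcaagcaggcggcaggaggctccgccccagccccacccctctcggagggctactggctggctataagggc
Pgm3, chr9:86571813-86572092, minus strand: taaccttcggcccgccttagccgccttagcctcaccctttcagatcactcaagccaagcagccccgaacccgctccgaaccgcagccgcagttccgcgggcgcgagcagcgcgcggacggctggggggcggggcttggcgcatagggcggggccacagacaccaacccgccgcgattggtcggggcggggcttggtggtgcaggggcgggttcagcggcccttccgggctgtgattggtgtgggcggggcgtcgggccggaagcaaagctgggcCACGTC

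Counted from the start site, the match began at position −122 in Gfpt1 and at position −238 in Gfpt2. In Uap1 and Pgm3 it lay just inside the transcript, from base 3 and from base 25. Ogt had no match in either of its promoters. Over all 32851 promoters of the table, 6.38% held GACGTG on either strand. The letters CAAGGNCA, a form of the site that LRH-1 is known to bind, were searched on both strands too and were in 0 of the 6 promoters of these genes and in 6.71% of all. The motif GACGTG was chosen after the sequences had been read, and a match in letters is not a bound site.

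Genes around the pathway were counted over 10 lists, none of which holds any of the 7 genes. Of 127 genes tested, 64 were higher and 63 lower in K289R, with a median difference of 0.0013. With limma 0 passed at an adjusted p under 0.05 (lowest adjusted p = 0.200), where 0.0444% of all genes tested did. At an unadjusted p under 0.05 there were 14, or 11.0% against 8.48% of all genes tested. Of these 8 were higher and 6 lower, where 4.43% of all genes tested were higher and 4.05% lower at that limit. None of the 127 was as low as Uap1: their differences ran from −0.26 to 0.46. As Uap1 was chosen by its difference and these genes were not, nothing is read from that contrast.

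In the list for the supply of substrates, 9 of 12 genes were higher and 3 lower, with a median of 0.09. Of the higher genes, Ctps2 and a relative on this list make CTP from UTP, and so use UTP up rather than supply it. Ctps2 differed by 0.21 (SE 0.058), and Hk2 and Hk1, which phosphorylate glucose, by 0.15 (SE 0.060) and 0.12 (SE 0.051). Among 7 genes of aminosugar salvage and turnover 2 were higher and 5 lower, with a median of −0.036. Amdhd2, which removes the acetyl group from GlcNAc 6-phosphate and so runs against Gnpnat1, differed by −0.14 (SE 0.060). Hexa, a subunit of lysosomal hexosaminidase, differed by −0.13 (SE 0.059) and Gnpda2, which turns glucosamine 6-phosphate back into fructose 6-phosphate, by 0.15 (SE 0.073).

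Oga, whose enzyme takes off the O-GlcNAc that Ogt adds, differed by 0.14 (SE 0.065), with means of 10.34 ± 0.14 in K289R and 10.20 ± 0.10 in WT (SD, n = 7 each). Hcfc1, a protein that Ogt cleaves, and Eogt, which adds O-GlcNAc to secreted proteins, differed by −0.0066 (SE 0.073) and 0.0020 (SE 0.072). The median of this list of 3 was 0.0020, with 2 higher and 1 lower. Of 6 genes for the synthesis of sialic acid, which starts from UDP-GlcNAc, or for its breakdown, 3 were higher and 3 lower with a median of −0.0028. The largest difference was that of Cmah, which hydroxylates CMP-sialic acid, at 0.25 (SE 0.129), and Cmas and Nans were at 0.09 (SE 0.090) and −0.05 (SE 0.072).

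The lists of sugar nucleotide transport and of glycan assembly went in no common direction, and not all of their genes use UDP-GlcNAc. For transport of sugar nucleotides into the ER and Golgi, 4 of 7 genes were higher, with a median of 0.0039. The GDP-fucose transporter gene Slc35c1 was at −0.12 (SE 0.058), Slc35b4 at 0.08 (SE 0.079) and Slc35d1 at −0.04 (SE 0.066). For N-glycan assembly and branching, 10 of 27 genes were higher and 17 lower, with a median of −0.0098 and 0 at an unadjusted p under 0.05 in limma. Mgat5 and Mgat4b, which branch N-glycans, differed by −0.12 (SE 0.067) and −0.14 (SE 0.084), and the mannosyltransferase gene Alg2 by −0.10 (SE 0.060).

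For the first steps of the GPI anchor 2 of 8 genes were higher and 6 lower, with a median of −0.067. Pigl, the deacetylase of the second step, was at −0.16 (SE 0.054), Pigh at −0.15 (SE 0.078) and Piga at −0.13 (SE 0.080). Of 14 genes for hyaluronan and glycosaminoglycans 8 were higher and 6 lower, with a median of 0.01. Csgalnact2, a chondroitin sulfate enzyme gene, was at 0.18 (SE 0.061), B4galt7 at −0.07 (SE 0.045) and Xylt2 at −0.09 (SE 0.058).

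Of the genes for mucin-type O-glycans, 17 of 24 were higher in K289R and 7 lower, with a median of 0.05. St6galnac1, which caps mucin glycans with sialic acid, had the largest difference of the 127 genes, 0.46 (SE 0.110), with means of 8.09 ± 0.27 in K289R and 7.64 ± 0.18 in WT (SD, n = 7 each). It did not pass (limma adjusted p = 0.200), except without K289R replicate 5 (0.55, SE 0.083, limma adjusted p = 0.0208), and over the other settings tried its adjusted p reached 0.684. Galnt7, which adds N-acetylgalactosamine to proteins, differed by 0.20 (SE 0.055) and C1galt1, which builds the core 1 structure, by 0.14 (SE 0.042).

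Of the genes for the unfolded protein response and ER chaperones 7 of 19 were higher and 12 lower, with a median of −0.030. Syvn1 and Herpud1, parts of the machinery that removes misfolded proteins from the ER, were at −0.26 (SE 0.081, limma adjusted p = 0.392) and −0.25 (SE 0.092, limma adjusted p = 0.444), and Manf at −0.12 (SE 0.055).

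**Figure D3:**
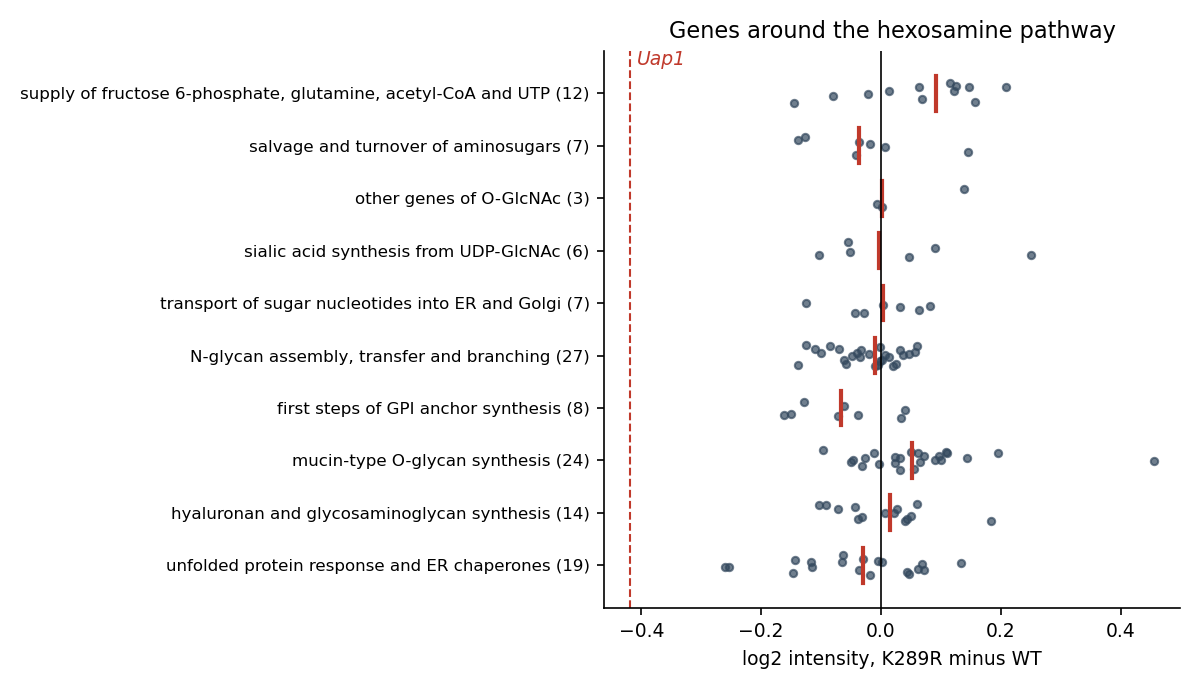
Difference in log2 intensity, K289R minus WT, of 127 tested genes in 10 lists around the hexosamine pathway, each point 1 gene with the number of genes in brackets, and red bars for the list medians. The medians lie between −0.067 and 0.09. No point lies as low as Uap1 at −0.42 (dashed line), which was chosen by its difference.

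Variation between mice of the same genotype does not use the contrast by which Uap1 was picked. Pearson's r was computed for the 21 pairs of the 7 genes over the 7 arrays of each genotype, 42 relations in all, with the exact permutation test over all pairings, 2-sided. With adjustment over the 42, 0 passed (lowest adjusted p = 0.290 for Pearson's r and 0.657 for Spearman's rho), and 6 had an unadjusted p under 0.05 for Pearson's r. How often other gene pairs on these arrays reach that limit was not counted, so nothing is read from the 6.

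Within K289R, Uap1 and Ogt had r = 0.84 (exact permutation p = 0.0194, adjusted p = 0.290) and rho = 0.86 (exact p = 0.0238, adjusted p = 0.657). Without the 2 arrays farthest from the Uap1 median r was 0.55. Within WT the same pair had r = 0.24 (exact p = 0.644, adjusted p = 0.929) and rho = 0.29 (exact p = 0.556, adjusted p = 0.833). Uap1 and Pgm3 had r = 0.77 in K289R (exact p = 0.0532, adjusted p = 0.319) with rho = 0.68 (exact p = 0.110, adjusted p = 0.657), and r = 0.049 in WT (exact p = 0.910, adjusted p = 0.955) with a rho of 0 (exact p = 1, adjusted p = 1). Without the 2 farthest arrays the K289R value was 0.62 and the WT value −0.21. The difference between the genotypes in these correlations was not tested. K289R replicates 2, 7 and 3 were the lowest, the second lowest and the highest for Uap1, and replicates 2 and 7 are arrays with Fabp6 signal. The part of ileal tissue in this relation was not tested.

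**Figure D4:**
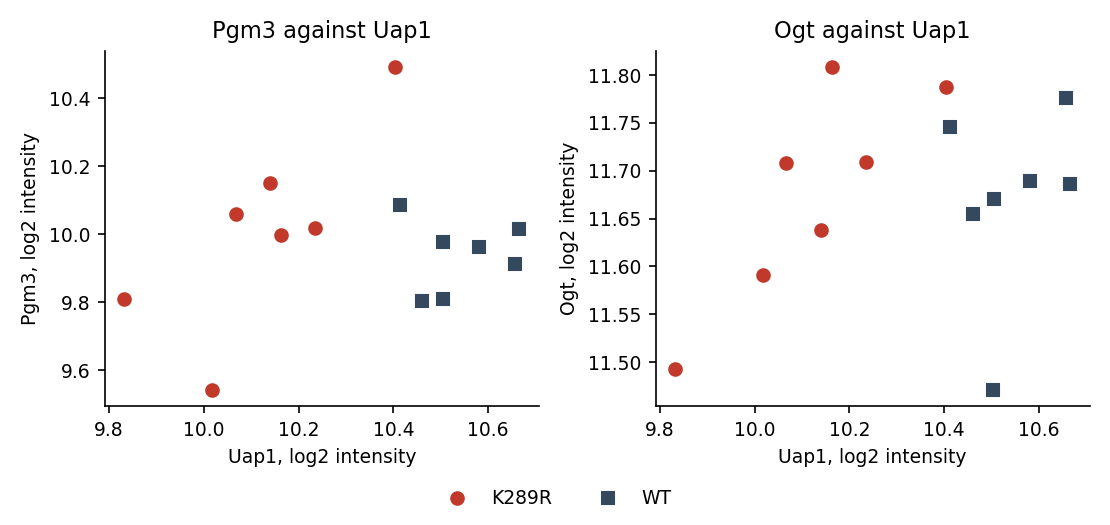
Log2 intensity of Pgm3 (left) and Ogt (right) against that of Uap1, 1 point per array, K289R as red circles and WT as dark blue squares (7 each). Over the K289R points r is 0.77 (left) and 0.84 (right), and over the WT points 0.049 and 0.24, with 0 of the relations passing after adjustment.

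Gfpt1 and Gnpnat1, which act in successive steps, had r = 0.87 in K289R (exact permutation p = 0.0244, adjusted p = 0.290) and r = 0.82 in WT (exact permutation p = 0.0276, adjusted p = 0.290), with rho = 0.68 in both (exact p = 0.110, adjusted p = 0.657). Without the 2 arrays farthest from the Gfpt1 median r was −0.015 in K289R and −0.0038 in WT. Leaving out the extremes also narrows the range of Gfpt1, so these values cannot show what the relation rests on. Uap1l1 ran against Gfpt1 in K289R with r = −0.82 (exact p = 0.0222, adjusted p = 0.290) and rho = −0.79 (exact p = 0.0480, adjusted p = 0.657). Here r was −0.58 without the 2 arrays farthest from the Uap1l1 median. Uap1l1 also ran against Gnpnat1 in K289R, with r = −0.77 (exact p = 0.0470, adjusted p = 0.319) and rho = −0.61 (exact p = 0.167, adjusted p = 0.778). Without the same 2 arrays r was −0.052. Gfpt1 and Ogt in WT had the largest size of r, −0.90 (exact p = 0.0389, adjusted p = 0.319), with rho = −0.43 (exact p = 0.354, adjusted p = 0.833). Without the 2 WT arrays farthest from the Gfpt1 median, 1 of them replicate 1, r was −0.15. Uap1 with Gfpt1 had r = 0.30 in K289R (exact p = 0.532, adjusted p = 0.901) and −0.16 in WT (exact p = 0.768, adjusted p = 0.955), with rho = 0.11 in each (exact p = 0.840, adjusted p = 0.928).

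The genes most like Uap1 over the 14 arrays, after each genotype's mean was taken off, were Zfp157 (r = 0.89), Mblac1 (0.87), Ankrd26 (0.87), Dnajc9 (0.85) and Thoc7 (0.84). Those most opposed were Gprin1 (r = −0.86), Mmp16 (−0.86), Meox1 (−0.86), Gngt2 (−0.82) and 4930546C10Rik (−0.81). These are the ends of a list of 18009 genes on shared arrays and are given as a description. Pgm3 stood at rank 429 from the top (r = 0.65) and Ogt at rank 532 (r = 0.63), while Gnpnat1 (0.26), Uap1l1 (0.14), Gfpt1 (0.11) and Gfpt2 (0.067) stood lower. The likeness was not equal in the 2 genotypes for each of them: Dnajc9 had r = 0.99 within K289R and 0.33 within WT, and Mmp16 had r = −0.95 within K289R and −0.43 within WT, while Zfp157 had 0.91 and 0.88. The 5 most like genes had differences between genotypes of −0.031 to 0.04.

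Uap1 lies on chromosome 1, as does Nr5a2, and their starts are 33.3 Mb apart. In the order of the 1049 tested genes of that chromosome Uap1 is 159 places from Nr5a2. The other 6 genes lie on chromosomes 2 (Uap1l1), 6 (Gfpt1), 9 (Pgm3), 11 (Gfpt2), 14 (Gnpnat1) and X (Ogt). Of the 5 tested genes on each side of Uap1, 0 of 10 passed with limma (0.0444% of all genes tested), 2 had an unadjusted p under 0.05 (8.48% of all), and 6 were lower in K289R (52.0% of all). The next gene on one side, Ddr2, a collagen receptor gene, was at 0.28 (SE 0.093) and the next on the other, Uhmk1, at 0.01 (SE 0.043). Gm7694 was at −0.21 (SE 0.073), 3110045C21Rik at −0.11 (SE 0.055), Nos1ap at 0.13 (SE 0.072) and Ccdc190 at 0.05 (SE 0.087). Rgs4, Hsd17b7, Sh2d1b2 and Sh2d1b1 were between −0.085 and −0.0067.

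**Figure D5:**
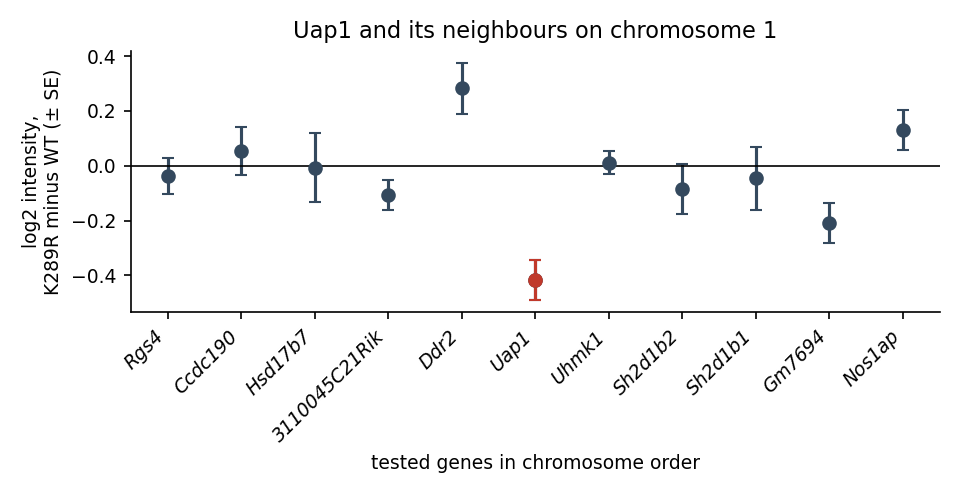
Difference in log2 intensity, K289R minus WT, with SE bars, of Uap1 (red) and the 5 tested genes on each side of it on chromosome 1, in chromosome order (7 arrays in each group). Uap1 is at −0.42, its neighbours between −0.21 (Gm7694) and 0.28 (Ddr2).

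Other cell types in the tissue pieces were followed by lists of their genes. Of 11 smooth muscle genes 9 were higher in K289R, 7 of these at an unadjusted p under 0.05 in limma and 0 after adjustment, with a median of 0.23. Over all genes tested 4.43% were higher at that unadjusted limit. Synm (0.30, SE 0.066) and Acta2 (0.19, SE 0.048) had the smallest p values of the list. The mean level of the smooth muscle list lay between 10.27 and 10.74 in K289R and between 10.27 and 10.47 in WT. Of 9 fibroblast genes 8 were higher, 5 at an unadjusted p under 0.05 and 0 after adjustment, with a median of 0.20, and the smallest p values were those of Vim (0.33, SE 0.089) and Dcn (0.30, SE 0.087). The mean level of the fibroblast list lay between 9.71 and 10.13 in K289R and between 9.59 and 10.03 in WT. With the smooth muscle mean in the model Uap1 differed by −0.34 (SE 0.093). That mean itself differed between genotypes, with a median of 10.60 in K289R and 10.34 in WT. In this and the earlier fits with it, smooth muscle content and genotype cannot be fully told apart.

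The 8 goblet cell genes, the makers of mucus, had a median of 0.02, with 5 higher and 3 lower, Agr2 at 0.10 (SE 0.073) and Clca1 at 0.08 (SE 0.078). Their mean level lay between 12.46 and 12.72 in K289R and between 12.47 and 12.68 in WT, and with it in the model Uap1 differed by −0.39 (SE 0.069). The 6 B and plasma cell genes were all higher, with a median of 0.14, Tnfrsf17 at 0.18 (SE 0.166) and Ms4a1 at 0.21 (SE 0.295), and levels of 8.55 to 9.55 in K289R and 8.50 to 9.26 in WT. With their mean in the model Uap1 differed by −0.40 (SE 0.075). The 8 T cell genes were all higher too, with a median of 0.29, Cd3g at 0.58 (SE 0.335) and Cd8b1 at 0.16 (SE 0.095), and levels of 7.56 to 9.09 in K289R and 7.76 to 9.02 in WT. The part of smooth muscle, fibroblasts and T cells in the Uap1 difference was not tested.

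Enterocyte genes had a median of −0.028, with 4 of 11 higher, Vil1 at −0.05 (SE 0.044) and Slc5a1 at −0.06 (SE 0.058). The 6 Paneth cell genes had one of 0.06, with 4 higher, Defa21 at 0.12 (SE 0.104) and Ang4 at 0.09 (SE 0.086), and levels of 13.06 to 13.42 in K289R and 12.92 to 13.40 in WT. The 5 tested pancreatic acinar genes had one of −0.038, with 1 higher, Sycn at 0.48 (SE 0.112), and 4 lower, Pnliprp1 at −0.09 (SE 0.046) among them, and levels of 7.49 to 7.64 in K289R and 7.34 to 7.66 in WT. In these 4 lists of goblet, enterocyte, Paneth and pancreatic genes, and in those of T and B cells, 0 genes passed with limma and 1, Sycn, had an unadjusted p under 0.05.

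The ileal genes Fabp6 and Slc10a2 differed by −0.16 (SE 0.994) and −0.30 (SE 0.552), with mean levels of 6.15 to 9.37 in K289R and 6.21 to 11.52 in WT. Uap1 was at 9.83 and 10.02 on the 2 K289R arrays with Fabp6 signal, the lowest of their genotype, and at 10.50 and 10.58 on the 2 WT arrays with it. On the arrays without it, Uap1 averaged 10.20 ± 0.13 in K289R and 10.54 ± 0.12 in WT (SD, n = 5 each), and the difference in a fit without the 4 arrays was −0.34 (SE 0.076). In that fit Pgm3 differed by 0.22 (SE 0.096), Gfpt1 by 0.20 (SE 0.070) and Uap1l1 by −0.074 (SE 0.105).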

How the data were processed

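Per the file headers and values, the authors deposited 1 table with the intensity of 41345 probe sets on 14 arrays, on a linear scale from 7.40 to 20050.3. The authors made them with Affymetrix Expression Console, per the submitters' processing notes. Which background correction, summarisation and normalization it ran is not stated. The near-equal array medians cannot show by themselves whether a scaling equalised the arrays. Such a scaling would remove a global shift between genotypes. Values were log2-transformed, as the design provided for linear values.

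Probe sets were named by the platform annotation, with symbols updated by Entrez identifier: 23521 had 1 symbol, 1814 several (left out) and 16010 were unnamed here. The brightest probe set stood for a gene, which gave 22180 genes, and 4170 with a mean under the 25th percentile of all probe sets were left out.

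K289R minus WT was fitted with limma 3.58.1 (R 4.3.3; lmFit and eBayes, no covariate) over 18010 genes with Benjamini-Hochberg adjustment, and correlations with exact permutation in numpy 2.4.6. Both were tested on simulated data. The smallest root mean square difference between arrays was 0.241 log2, so no array was a copy. Labels call the samples biological replicates.

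The genes, lists and tests were chosen with earlier results of these data known. Of 135 genes in 10 pathway lists 127 were tested. Named are all 7 genes, up to 3 genes with the smallest p per pathway list, 2 per marker list, the 5 most and 5 least like Uap1, and 5 neighbours a side. Promoters came from RefSeq's GRCm38.p6 table.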

Additional observations from a re-analysis of the deposited data

Results flagged for a closer look

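In 3 of 14 sets of 7 arrays (7 genes in each genotype), 1 array stood apart from the others by Dixon's test, where chance gives about 5% of such sets. Gfpt1 was at 11.22 on WT replicate 1, with the other WT arrays between 10.81 and 10.95. Ogt was at 11.47 on the same array, with the others between 11.66 and 11.78. Gfpt2 was at 7.26 on K289R replicate 5, with the other K289R arrays between 6.72 and 6.95.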

How the results depend on the processing

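The Uap1 difference (−0.42) kept its sign in each of 27 alternatives, from −0.47 with array weights to −0.34 without the 4 arrays with Fabp6 signal, and from −0.46 to −0.37 with 1 array left out. Uap1 was chosen by this difference, and its arrays did not overlap between genotypes. Leaving out 1 array could therefore not change its sign, and nothing is read from the sign. The 4 differences of Uap1l1, Gfpt1, Gfpt2 and Gnpnat1 kept their signs too, Gfpt2 in 26 as a filter at the median removes it. Pgm3 took the other sign in 1 alternative and Ogt in 5 of 27. Where 8 genes passed over all genes tested, 14 did with array weights, 21 with the goblet mean as a covariate, 5 without the arrays with Fabp6 signal, and 4 to 14 with 1 array left out (4 when K289R replicate 4 or either of WT replicates 3 and 4 was dropped, 5 when K289R replicate 7 was, 14 when K289R replicate 5 was). With the replicate block 0 passed in limma, with 1465 at an unadjusted p under 0.05. The labels do not say whether equal replicate numbers pair the mice. The deviations of same-numbered arrays correlated between −0.15 and 0.17, and 0 of 7 K289R arrays correlated best with their own number. These values cannot show whether the mice were paired. The pathway count of 0 stayed at 0 with the replicate block and was 0 to 1 with 1 array left out (1, St6galnac1, without K289R replicate 5). The 0 pairs of genes past adjustment stayed at 0 in 3 alternatives. The causes were not tested. Signals near the limit for dim genes, such as Gfpt2, bound what can be seen there.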
